A study of Mus musculus with 4 samples.

Results

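Lyve1-negative macrophages of the mouse digit were taken as cells with macrophage transcripts and no detected transcript of Lyve1, the hyaluronan receptor found on lymphatic endothelium and on a perivascular subset of resident macrophages. A member carried at least 1 unique molecular identifier (UMI, the tag that counts 1 captured transcript) in 4 or more of C1qa, C1qb, C1qc, Csf1r, Adgre1 and Mrc1, and 0 UMIs of Lyve1, of the lymphatic regulator Prox1 and of the Langerhans cell gene Cd207. The rule gave 1096 members among 93602 kept cells (1.17%, exact 95% interval 1.10% to 1.24%) from 113503 barcodes. They were 29.5% (28.0% to 31.0%) of the 3719 macrophages that the same rule found with or without Lyve1. The members were thus selected on measured UMIs of these 9 genes, whose levels are given only as a description.

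The cells came from 4 droplet libraries (10x Genomics) of digits after P3 amputation, each made from the pooled digits of 10 mice. The mice were females aged 6-8 weeks, C57BL/6 in the labels and C57BL/6J in the study's methods. By those methods the digits were cut at the proximal P2 level, in the phalanx before P3. More digits were listed as collected than as amputated. The pools may thus hold tissue outside the regenerating tip. The SAR131675 library came from mice fed the VEGFR3 inhibitor SAR131675 at 30 ppm in chow, with 8 days of diet in the labels, and was paired with a library from mice on matched control chow. The lymph node removal (LNR) library came from limbs without their draining nodes and was paired with a library of sham limbs, whose treatment is labeled No treatment. The study used the opposite limb of the operated animals as sham, so both libraries of this pair may hold digits of the same mice, which the labels do not settle. Each condition is 1 library and each library is its own batch in the labels, so condition and batch cannot be told apart and no p-value is given between conditions. The labels name no transgene in any group, and the sources differ on the length of the diet and on the day of collection after amputation, which is therefore not used here.

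Tissue macrophages clear dead cells and debris, present antigen and secrete factors that act on neighboring cells. In skin and other connective tissues, resident macrophages with Lyve1, Folr2 and Timd4 lie along vessels, whereas macrophages without Lyve1 often carry MHC class II and Ccr2, the receptor that brings blood monocytes into tissue. Antigen presentation by class II uses paired alpha and beta chains, such as those of H2-Aa and H2-Ab1, the invariant chain Cd74, and the loading factors H2-DMa and H2-DMb1. H2-Eb1 encodes another beta chain, which is not the partner of H2-Aa. Ciita is the master regulator of the transcription of class II genes.

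The macrophage identity of the members was checked on genes that the rule did not use, with levels in counts per 1e6 summed UMIs (CPM). Cd68, a lysosomal macrophage protein, was at 361 CPM in SAR131675, 364 in control chow, 323 in LNR and 274 in sham, and the lysozyme Lyz2 was at 6241 CPM in SAR131675, 6876 in control chow, 5536 in LNR and 3804 in sham. Cd68 was found in 57.4% to 68.1% of members over the libraries and in 2.12% to 2.95% of keratinocytes of the same libraries, which should lack it. The keratinocytes were taken without UMIs of the leukocyte gene Ptprc, which lowers macrophage transcripts among them by selection. Their share thus does not bound the part of free RNA or doublets. Pf4, a chemokine of resident macrophages, was at 2666 to 3138 CPM in members against 88.0 to 162 CPM in all other kept cells. Of 16 macrophage genes outside the rule, 2 were higher and 6 lower in members than in Lyve1-positive macrophages by edgeR at an adjusted p under 0.05, beside 5.41% and 5.03% of all genes tested, with a median log2 fold change of -0.10. Cd68 and Pf4 thus went with the label macrophage, but UMIs of other cells were also present. Of the 1096 members, 399 (36.4%) carried UMIs of 3 or more of the 5 markers of another cell class, 49.2% in SAR131675, 31.3% in control chow, 32.1% in LNR and 34.0% in sham. The SAR131675 library thus stood apart in this respect, and counts of cells and of genes are given also without such barcodes.

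Each library held few members. There were 250 in SAR131675, 166 in control chow, 368 in LNR and 312 in sham, with a median of 6130 UMIs per member in SAR131675, 6023.5 in control chow, 3752.5 in LNR and 3010 in sham. Lyve1-positive macrophages were deeper, at a median of 8044 UMIs in SAR131675, 7899.5 in control chow, 4279.5 in LNR and 4005 in sham. The summed UMIs of the members were 1666189 in SAR131675, 1116863 in control chow, 1975632 in LNR and 1536073 in sham. No barcode was a member in more than 1 library, although the libraries of the SAR131675 pair shared 348 barcodes and those of the LNR pair 130. Intervals throughout are for 95% and cover counting error only, and cells of 1 library are not replicates of a condition.

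Because Lyve1 is absent by count, depth enters the rule. Among LNR macrophages with 500 to 2000 UMIs, 49.2% (41.6% to 56.7%) had no Lyve1 UMI, against 26.2% (21.9% to 30.9%) of those with 4000 to 8000 UMIs. In SAR131675 the same shares were 55% (43.5% to 66.2%) and 27.2% (22.2% to 32.7%), and 21.5% (17.6% to 25.9%) at 8000 UMIs or more. At 8000 UMIs or more the share was 15.8% in control chow but 36.1% (29.3% to 43.3%) in LNR and 28.5% in sham, above the bin before it in both. Macrophages under 2000 UMIs were thus most often classed as Lyve1-negative in each library, and a transcript that was not captured cannot be told apart from one that was absent. At the edge of the rule, 79, 42, 123 and 114 macrophages of SAR131675, control chow, LNR and sham carried exactly 1 Lyve1 UMI, while Lyve1-positive macrophages had a median of 10, 14, 5.5 and 5.5. Cells with 3 of the 6 macrophage genes, just outside the rule, numbered 94, 76, 75 and 77 in that order, and cells with 4 of the 6, just inside it, 42, 34, 83 and 75. Pf4 was at 124, 130.4, 333 and 165 CPM in the cells just outside and at 2051, 581, 1197 and 671 CPM in those just inside. H2-Aa went the other way, at 10338, 11733, 5381 and 2341 CPM just outside and 5094, 4670, 1855 and 2061 CPM just inside. Lyz2 and Cd68 were higher just inside except in SAR131675. There Lyz2 was at 3458 CPM outside and 3277 CPM inside, and Cd68 at 131 and 95.7 CPM. The rule thus left out cells with a higher summed level of H2-Aa.

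The first question was whether Lyve1-negative macrophages took a different share of the digit after the lymphatic treatments. Among kept cells they were 0.860% (0.757% to 0.973%) in SAR131675 and 0.691% (0.590% to 0.804%) in control chow, a log2 ratio of 0.32 (0.03 to 0.61). The direction turned without barcodes that carried markers of another class, with 0.437% in SAR131675, 0.474% in control chow and a log2 ratio of -0.12 (-0.50 to 0.26). In LNR they were 1.86% (1.67% to 2.05%) of kept cells and in sham 1.51% (1.35% to 1.69%), a log2 ratio of 0.30 (0.08 to 0.52), and 0.34 (0.07 to 0.61) without those barcodes. Shares in the LNR pair were thus above those in the SAR131675 pair, but the pairs were processed with different software versions and differed in depth.

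Within the macrophages, the Lyve1-negative share was 28.8% (25.8% to 32.0%) in SAR131675, 24.1% (20.9% to 27.4%) in control chow, 32.5% (29.8% to 35.3%) in LNR and 30.3% (27.5% to 33.2%) in sham. The intervals of the libraries of each pair overlapped. The log2 ratio was 0.26 (-0.03 to 0.55) for SAR131675 over control chow and 0.10 (-0.12 to 0.32) for LNR over sham. The intervals of these ratios treat both counts as rare among their totals. For shares this large they are wider than binomial ones, so whether they include 0 is not read here. Without barcodes that carried markers of another class, the log2 ratio was 0.42 (0.04 to 0.80) for SAR131675, from 32.1% and 24.0%, and 0.16 (-0.11 to 0.43) for LNR. That step removed 56.4% of Lyve1-positive macrophages and 49.2% of members in SAR131675, against 31.1% and 31.3% in control chow. It thus took a larger part of the Lyve1-positive cells than of the members in SAR131675, and its part in the ratio was not tested. After every cell was thinned to 1500 UMIs, the shares rose to 37.3%, 31.9%, 37.9% and 35.4% in the same order, and the distance between the pairs narrowed.

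**Figure D1:**
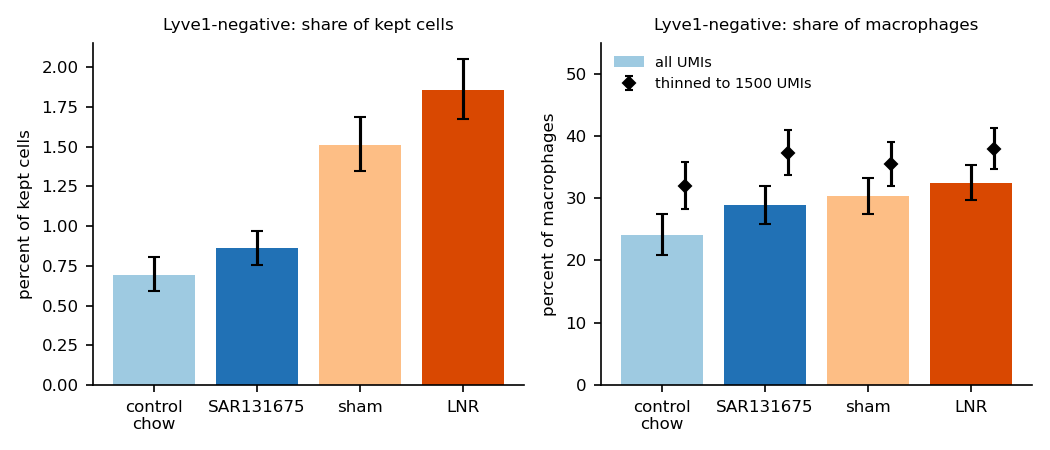
Left, Lyve1-negative macrophages as a percent of kept cells in each of the 4 libraries. Right, their percent of all macrophages, with bars for all UMIs and diamonds for cells thinned to 1500 UMIs. Lines are exact 95% binomial intervals for counting error. The libraries of the LNR pair lie above those of the SAR131675 pair on the left (1.51% and 1.86% against 0.691% and 0.860%), and within each pair the intervals on the right overlap.

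The members were then compared with the Lyve1-positive macrophages of the same libraries, which asks what else differs between macrophages on the 2 sides of the rule. UMIs were summed per library and class, and 11798 genes were tested by edgeR's quasi-likelihood test with the library as a block, so the 4 libraries served as replicates of the cell classes. Since LNR and sham may hold digits of the same mice, these replicates may not all be independent, here and in the other class comparisons. At a Benjamini-Hochberg adjusted p under 0.05, 638 genes (5.41%) were higher in members and 594 (5.03%) were lower. Antigen presentation genes were prominent on the higher side and genes of resident macrophages on the lower side. Without the library term in the fit, 62 genes were higher and 33 lower. With cells of both classes matched on UMIs per cell, 10281 genes were tested. Of these, 362 were higher and 314 lower, of which 324 and 313 were also among the calls of the full comparison.

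MHC class II had the highest median of the lists. Of 10 listed genes, 9 were tested and 7 rose in members, with a list median log2 fold change of 3.72 beside 0.003 over all genes tested. H2-Aa, an alpha chain, was at 3393 CPM in SAR131675, 3886 in control chow, 1469 in LNR and 1559 in sham in members. In Lyve1-positive macrophages it was at 187 CPM in SAR131675, 161 in control chow, 155 in LNR and 152 in sham, below the members in each library. The log2 fold change of H2-Aa was 3.89 ± 0.21 (SE, 4 libraries; edgeR, Benjamini-Hochberg adjusted p = 1.55e-05). H2-Eb1, a beta chain, was at 2680.4 CPM in SAR131675, 3086 in control chow, 995 in LNR and 1034 in sham in members and at 78.6 to 122 CPM in Lyve1-positive macrophages, with a log2 fold change of 4.22 ± 0.22 (edgeR adjusted p = 1.34e-05). Cd74 was the most abundant of the list by CPM, at 5203 CPM in SAR131675, 6445 in control chow, 2998 in LNR and 3189.9 in sham in members and 309 to 355 CPM in Lyve1-positive macrophages (log2 fold change 3.72 ± 0.21, edgeR adjusted p = 1.55e-05).

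Other class II genes were higher as well. H2-Ab1, the partner of H2-Aa, had a log2 fold change of 3.88 ± 0.20, and the loading factors H2-DMb1 and H2-DMa had 3.12 ± 0.15 and 2.31 ± 0.11, each with an edgeR adjusted p of at most 1.34e-05. Ciita rose by 3.92 ± 0.33 from low levels, with 10.6 to 38.5 CPM in members and 0.244 to 3.48 CPM in Lyve1-positive macrophages (edgeR adjusted p = 1.35e-04). Ctss, the protease that trims Cd74, and the costimulator Cd86 were not called, with log2 fold changes of -0.09 and 0.01. H2-Oa was too low to be tested. The fold of H2-Aa lay between 3.23 and 4.20 on the log2 scale over 15 alternative settings, all of them called.

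Promoter sequences of the class II genes that led this comparison are shown to place the Y box, an inverted CCAAT element that class II promoters are known to share. The windows come from RefSeq on the mouse build GRCm38.p6, since no sequence of the files' build, GRCm39, was used here, and each is written 5′ to 3′ on the strand of its gene with the motif GATTGG in capitals.
H2-Aa, chr17:34287857-34287922: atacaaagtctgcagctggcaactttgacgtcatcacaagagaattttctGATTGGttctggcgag
H2-Eb1, chr17:34305757-34305822: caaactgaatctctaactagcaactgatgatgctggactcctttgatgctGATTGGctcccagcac
H2-DMb1, chr17:34153079-34153144: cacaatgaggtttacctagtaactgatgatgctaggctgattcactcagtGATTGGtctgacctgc
H2-Aa lies on the minus strand and the others on the plus strand. GATTGG began 49 bases before the gene start in H2-Aa, 60 in H2-Eb1, which held 2 matches, and 62 in H2-DMb1. H2-DMa had 2 listed starts, of which 1 held the motif, at 199 bases, and H2-Ab1 was not matched in the table, so 4 of 5 genes looked up were matched. GATTGG or its complement CCAATC, searched on both strands, was found in 4783 of 32851 promoters (14.6%), and its inner letters ATTGG in 33.8%. A match here is a description of letters and not a measured site.

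Class II was not spread evenly over the members. Counting H2-Aa, H2-Ab1, H2-Eb1 and Cd74 together, 38.8% (32.7% to 45.1%) of members in SAR131675 reached 5000 CPM, with 39.8% (32.3% to 47.6%) in control chow, 27.2% (22.7% to 32.0%) in LNR and 27.6% (22.7% to 32.9%) in sham. A larger share of members lay below 1000 CPM, at 51.6% in SAR131675, 48.2% in control chow, 60.9% in LNR and 60.3% in sham. Members were thus a mixture of cells with abundant class II and cells with little or none. In Lyve1-positive macrophages, 3.63% to 4.84% of cells reached 5000 CPM, and in conventional dendritic cells, which need H2-Ab1 to be selected, 98.4% to 100% did. H2-Aa was detected in 40.5% to 53.6% of members, in 11.3% to 14.1% of Lyve1-positive macrophages and in 3.75% to 6.31% of keratinocytes, whose median depth was 8546 to 12731 UMIs. The share in members was above that in keratinocytes in every library. The keratinocytes were taken without UMIs of Ptprc and doublets were left among the members, so this does not bound the part of free RNA or doublets, which was not tested.

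**Figure D2:**
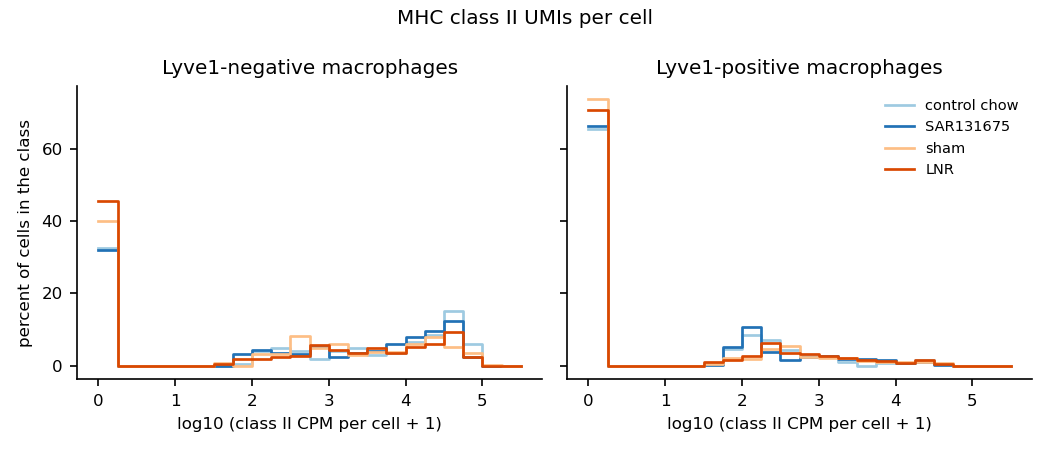
Percent of cells (vertical axis) by class II CPM per cell, the sum of H2-Aa, H2-Ab1, H2-Eb1 and Cd74 as log10 of CPM plus 1 (horizontal axis), in Lyve1-negative (left) and Lyve1-positive macrophages (right), 1 line per library. The members have a second group of cells toward the right, and 27.2% to 39.8% of them reach 5000 CPM against 3.63% to 4.84% of Lyve1-positive macrophages.

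Ccr2, the monocyte chemokine receptor, followed class II. It was at 314 CPM in SAR131675, 372 in control chow, 196 in LNR and 180.3 in sham in members and 12.3 to 33.9 CPM in Lyve1-positive macrophages, and was detected in 20.8% to 32.8% of members and 4.39% to 5.02% of Lyve1-positive macrophages. Its log2 fold change was 3.48 ± 0.31 (edgeR adjusted p = 1.86e-04), and all 15 alternatives called it. It was the only listed monocyte gene to rise. Of 12, 7 were tested, 1 rose and 2 fell (S100a4 by 0.19 and Lyz2 by 0.23 on the log2 scale). Defining genes of blood monocytes were near 0, with Ly6c2 at 1.20 to 6.27 CPM and Plac8 at 0 to 5.86 CPM in members.

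Inflammatory genes were also higher in members. All 13 listed cytokine and NF-kB genes were tested, 9 rose, 0 fell, and the list median was 1.11 on the log2 scale. Il1b, the cytokine interleukin 1 beta, was at 267 CPM in SAR131675, 307 in control chow, 359 in LNR and 281 in sham in members and 31.1 to 85.9 CPM in Lyve1-positive macrophages (log2 fold change 2.49 ± 0.19, edgeR adjusted p = 1.00e-04). Clec4e, a receptor for mycobacterial and dead-cell ligands, rose by 2.14, the prostaglandin synthase Ptgs2 by 2.09, the interleukin 1 antagonist Il1rn by 1.91, and the inflammasome sensor Nlrp3 by 1.62. Il6, Nfkbia, Nfkbiz and Sod2 were not called, with log2 fold changes of 0.63, 0.34, 0.23 and 0.23. Clec7a, the beta-glucan receptor Dectin-1, is on the list of phagocytic receptors and rose by 2.13 ± 0.19. Among 12 immediate early and heat shock genes, which rise during tissue digestion, 1 (Junb, 0.41) was called.

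Chemokines split between the classes. Of 12, 3 rose and 2 fell. Cxcl10, Ccl4 and Cxcl16 rose by 1.84, 1.85 and 1.10, whereas Ccl6 and Ccl9 fell by 0.79 and 0.65 on the log2 scale. Ccl8, a ligand of several CC receptors that is counted with the resident genes here, was the only one of them to rise, by 1.302 on the log2 scale, with 1330.0 CPM in SAR131675, 794 in control chow, 1039.7 in LNR and 782 in sham in members and 295 to 543 CPM in Lyve1-positive macrophages. It lost its call without the library term (edgeR adjusted p = 0.0568). Interferon-stimulated genes rose in 2 of 11 (Rsad2 and Mx1), and 0 of 12 cell cycle genes were called, with Mki67 at a log2 fold change of 0.00 and 75.0 to 94.0 CPM in members.

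Some of the largest folds rested on few cells. Mmp12, macrophage elastase, had the largest fold by the naming rule, 7.32 ± 0.69 (edgeR adjusted p = 2.62e-04), at 29.4 CPM in SAR131675, 362 in control chow, 20.2 in LNR and 5.21 in sham in members and 0 to 0.977 CPM in Lyve1-positive macrophages. Only 30 members held any Mmp12 UMI, 1 cell of control chow held 56.7% of them, and the edgeR call was lost without the upper limits on genes and UMIs (adjusted p = 0.0529) and without the library term (0.0998). Spp1, osteopontin, had 80.4 CPM in SAR131675, 507 in control chow, 727 in LNR and 270.2 in sham in members, a log2 fold change of 2.54 ± 0.49 and 31.4% of its UMIs in 1 cell, and Cxcl13, the B cell chemoattractant, had 2.59 with 33.9% in 1 cell. Both were lost without the library term, at adjusted p = 0.138 and 0.256. In contrast Ear2, a ribonuclease, was found in 53 members, with 28.0 to 73.8 CPM in members and 0 to 0.774 CPM in Lyve1-positive macrophages, a log2 fold change of 6.99 ± 0.30 and 17.7% of its UMIs in 1 cell. The other genes named by size were less concentrated, with 2.12% (Ccr2) to 3.27% (Tnip3) of UMIs in the top cell for Ccr2, Cd52, Cytip, Plbd1 and Tnip3. Tnip3, a binder of the NF-kB inhibitor A20, rose by 4.11 ± 0.39, the surface glycoprotein Cd52 by 3.11 ± 0.18, Cytip, which regulates leukocyte adhesion, by 2.65 ± 0.18, and Plbd1 by 2.58 ± 0.31.

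**Figure D3:**
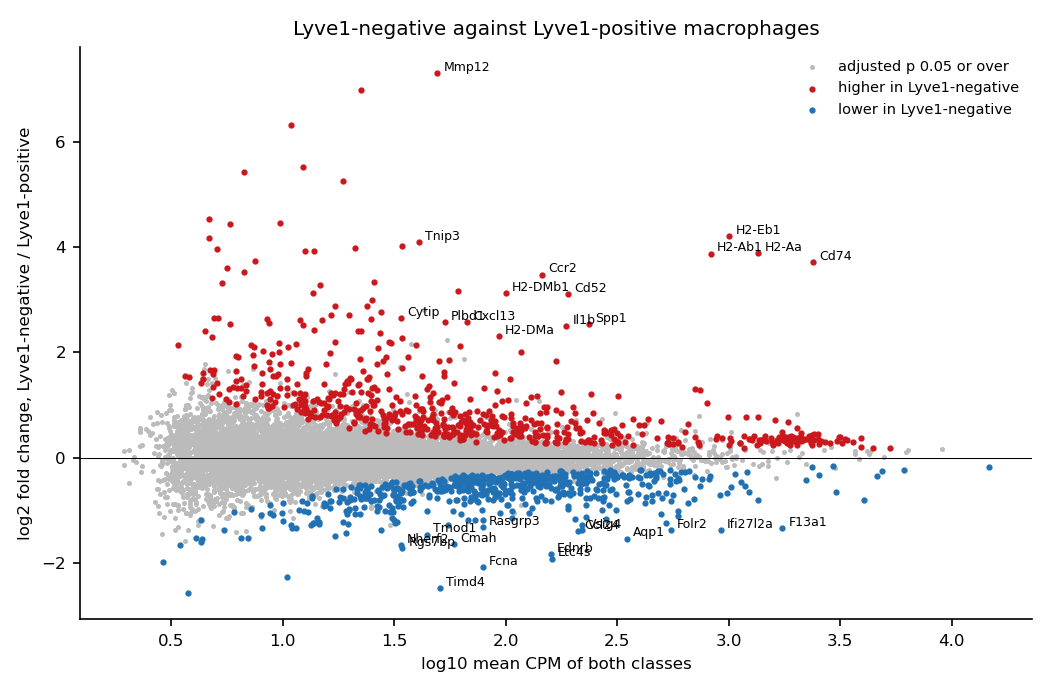
Log2 fold change of Lyve1-negative over Lyve1-positive macrophages (vertical axis) against log10 of the mean CPM of both classes (horizontal axis) for the genes tested. Red points are higher (638) and blue points lower (594) at an adjusted p under 0.05, gray points did not pass, and the 15 genes named in each direction carry their symbols. The class II genes H2-Eb1, H2-Aa, H2-Ab1 and Cd74 are both abundant and among the largest rises (3.72 to 4.22).

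Genes of resident macrophages were lower in members. Of 18 symbols listed (Sepp1 is an older name of Selenop), 17 were tested, 13 fell and 1 (Ccl8) rose, with a list median of -0.81. Timd4, the phosphatidylserine receptor Tim-4, had the largest fall among named genes, -2.48 ± 0.15 (edgeR adjusted p = 1.97e-05), with 17.4 CPM in SAR131675, 12.5 in control chow, 17.2 in LNR and 11.7 in sham in members and 68.0 to 106 CPM in Lyve1-positive macrophages. Folr2, the folate receptor beta, was at 292 CPM in SAR131675, 226 in control chow, 345 in LNR and 330.1 in sham in members and 766 to 832 CPM in Lyve1-positive macrophages (-1.38 ± 0.09, edgeR adjusted p = 4.74e-05). Both genes were thus lower in all 4 libraries without reaching 0. F13a1, the A chain of coagulation factor XIII, fell by 1.34 ± 0.07, the reductase gene Cbr2 by 1.12, the scavenger receptor Stab1 by 0.99, Pf4 by 0.81, the hemoglobin receptor Cd163 by 0.67 and Selenop, a selenium carrier, by 0.66 on the log2 scale. Igf1, Clec10a and Cd209g were not called, with log2 fold changes of 0.05, -0.31 and -0.33.

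The other genes named on the lower side were Fcna, a ficolin of the lectin pathway (-2.08 ± 0.10), Ltc4s, leukotriene C4 synthase (-1.92 ± 0.11), the endothelin receptor Ednrb (-1.84 ± 0.15), Rgs7bp (-1.72), Nherf2 (-1.67), Cmah (-1.64), the water channel Aqp1 (-1.54 ± 0.10), Tmod1 (-1.46), the eosinophil chemokine Ccl24 (-1.40), Ifi27l2a (-1.39), the complement receptor Vsig4 (-1.38 ± 0.07) and Rasgrp3 (-1.32). Each was lower in members in 4 of 4 libraries. Cmah, Ifi27l2a and Rasgrp3 lost their edgeR calls without the library term, at adjusted p = 0.0998, 0.300 and 0.199. Of 12 phagocytic genes tested, 5 fell, among them Cd36 (-1.08), Mertk (-0.62) and Tlr4 (-0.59), and 2 rose, Clec7a and Axl (1.16). The iron and heme list fell in 3 of 8, namely Blvrb (-0.49), Trf (-0.47) and Hpgd (-0.30). Hpgd, which breaks down prostaglandins, does not handle iron or heme but is counted in that list throughout, and 2 of the 7 other genes fell.

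Genes of lipid-associated macrophages, a state seen around dying cells and lipid, did not move as a block. All 15 were tested, 8 rose and 2 fell, with a list median of 0.42. Gpnmb, a lysosomal glycoprotein, was at 19.2 CPM in SAR131675, 80.6 in control chow, 68.8 in LNR and 29.3 in sham in members and 7.16 to 17.8 CPM in Lyve1-positive macrophages (log2 fold change 2.19 ± 0.29), the fatty acid binding protein Fabp5 rose by 1.29, lipoprotein lipase Lpl by 0.96 and the lectin Lgals3 by 0.77. Trem2, the receptor that names this state, fell by 0.30 and the protease Ctsb by 0.32 on the log2 scale, and Apoe was not called (0.13). Alternative activation genes rose in 5 of 9 tested (Ear2, Il10 1.42, Cd209a 1.09, Mgl2 0.74 and Socs3 0.39) and 1, Ccl24, fell. Among 12 growth factors, Vegfa (1.22) and Pdgfb (0.95) rose, and Bmp2 (-1.03), Pdgfc (-0.78) and Grn (-0.56) fell, of 11 tested. Slc2a1 (0.92) was the 1 hypoxia gene called of 9.

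Digit regeneration begins with bone resorption by osteoclasts, which form from cells of the macrophage lineage, and osteoclast genes were read in the members. Of 12, 5 were tested. Acp5, tartrate-resistant acid phosphatase, rose by 0.75 ± 0.20. It was found in 9.20% to 11.7% of members, 10.7% to 13.1% of Lyve1-positive macrophages and 34.0% to 36.5% of keratinocytes, at median depths of 3010 to 6130 UMIs in members and 8546 to 12731 UMIs in keratinocytes. The share was lower in members than in Lyve1-positive macrophages in 3 of 4 libraries, and the part of free RNA in the summed level was not tested. Of the others, the RANK receptor Tnfrsf11a fell by 0.43, while Nfatc1, Ctsk and Atp6v0d2 were not called. Of the other 7, Calcr and Oscar were at 0 UMIs in members in all 4 libraries, Ocstamp at 0 to 1.79 CPM, Itgb3 at 1.20 to 2.60 CPM and Car2 at 0 to 5.86 CPM. The protease Mmp9 was at 0 to 22.3 CPM, highest in LNR, and the fusion gene Dcstamp at 1.95 to 22.4 CPM, highest in control chow, where it was found in 3.01% of members and 0.191% of Lyve1-positive macrophages. Tnfrsf11a itself was at 131 CPM in SAR131675, 141 in control chow, 50.1 in LNR and 48.8 in sham.

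Markers of other cell classes were also present in both macrophage classes. Summed over its 5 markers, the keratinocyte list was at 3091 CPM in SAR131675, 4587 in control chow, 5512 in LNR and 6649 in sham in members and at 1310.4 to 5129.5 CPM in Lyve1-positive macrophages, higher in members in each library, with 1 of 5 genes called (Dsp, 0.62). Fibroblast markers had 1 of 5 called (Pdgfra, 0.88), endothelial markers 1 of 4 (Pecam1, 1.47), mast cell markers 1 of 2 (Mcpt4, 2.71), neutrophil markers 1 of 3 (Csf3r, 0.80), B cell markers 1 of 1 (Cd79b), Schwann cell markers 1 of 3 (Mbp, 0.43) and Langerhans markers 1 of 5 (Il1r2), each called gene being higher in members, whereas 0 of 4 erythroid and 0 of 5 pericyte markers were called. The lists of Csf3r and Mbp as a whole did not follow them. The neutrophil median was -0.91, and its summed level was lower in members in 3 of 4 libraries, at 160 against 1184 CPM in sham, while the Schwann median was -0.44, and its sum was lower in members in 2 of 4. The part of these transcripts in the other differences was not tested. The defining T cell genes Cd3e and Cd3d were at 0 to 1.52 and 0 to 1.01 CPM. The 5 dendritic markers summed to 25.2 CPM in SAR131675, 36.7 in control chow, 8.60 in LNR and 9.11 in sham in members and 14.9 CPM in SAR131675, 13.7 in control chow, 3.17 in LNR and 2.80 in sham in Lyve1-positive macrophages, higher in members in each library. Zbtb46 was the largest part of the sum in SAR131675, control chow and LNR, at 1.95 to 29.5 CPM over the 4 libraries, with Flt3 at 2.02 to 6.60 CPM, Ccr7 at 0 to 5.40 CPM, Xcr1 at 0.506 to 0.895 CPM and Clec9a at 0 UMIs. Their part in the differences was not tested either. Without the barcodes that carried other markers, 9023 genes were tested instead of 11798. Of these, 668 were higher and 464 lower, of which 404 and 349 were shared with the calls above.

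Members were next set against the monocytes of the same libraries, the blood-derived cells that can become macrophages. The 185 monocytes carried UMIs of Ccr2 and Plac8 and fewer than 4 of the macrophage genes. By edgeR at an adjusted p under 0.05, 629 of 8166 genes (7.7%) were higher in members and 697 (8.54%) lower. Without barcodes with other markers the counts were 676 and 597 of 5384 tested. All 16 resident genes tested were higher, with a list median of 5.07, or 4.31 with genes that monocytes lacked set at their bound. The monocyte rule capped the macrophage genes that members had to carry, and the part of this selection in the differences from monocytes was not tested. Folr2 had 1927 UMIs in members and 1 in monocytes, a CPM ratio of 351 (95% counting interval 63.0 to 13882), and Pf4 had a log2 fold change of 7.88 ± 0.26 (edgeR adjusted p = 1.52e-08). Retnla, an alternative activation product, had 1828 UMIs in members and 0 in monocytes, so it was at least 112-fold higher against a floor of 3 UMIs over the group, with Vsig4 at least 46.1-fold, Cxcl13 at least 40.7-fold, Syngr1 at least 36.8-fold, Cd209f at least 25.9-fold and Ltc4s at least 25.8-fold higher. Ccl8 and Cd163 each had 3 UMIs in monocytes, at CPM ratios of 386 (95% counting interval 132 to 1874) and 137 (95% counting interval 47.0 to 667).

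On the other side, members held little of the monocyte genes. Of 10 listed monocyte genes tested, 8 were lower and 0 higher, with a list median of -5.20. The monocytes were selected on UMIs of other monocyte genes, and the part of this selection in the lower levels of members was not tested. Ly6c2, the Ly6C antigen of classical monocytes, was at 1.20 to 6.27 CPM in members and 539.8 to 945 CPM in monocytes (-7.71 ± 0.28, edgeR adjusted p = 2.38e-08), and Ly6a2 had 0 UMIs in members, so it was at least 327-fold lower. Haptoglobin (Hp, -7.02), proteinase 3 (Prtn3, -6.97), the chitinase-like Chil3 (-6.57), the neutrophil collagenase Mmp8 (-6.50), Ifitm6 (-6.03) and the adhesive protein Thbs1 (-4.35) were also lower. Neutrophil markers were lower as well, in 3 of 3 tested with a median of -4.08, and their part in these differences was not tested. The inflammatory list fell in 10 of 13 with a median of -1.57, so members lay between Lyve1-positive macrophages and monocytes on it. Il1b was at up to 3420.4 CPM in monocytes, which exceeded members in each library, 267 to 359 CPM in members and 31.1 to 85.9 in Lyve1-positive macrophages. None of 9 class II genes was called against monocytes by edgeR, with a median of -0.28, which does not show that the levels were equal.

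The 323 conventional dendritic cells carried H2-Ab1, 2 or more of Flt3, Zbtb46, Xcr1, Clec9a, Ccr7 and Cd209a, and fewer than 4 of the macrophage genes. Against them, edgeR called 888 of 9644 genes (9.21%) higher in members and 885 (9.18%) lower. Without barcodes with other markers the counts were 854 and 720 of 6339 tested. Class II was below the dendritic level, with 6 of 8 tested genes lower and a median of -2.20. H2-Aa was at 10092 to 11877 CPM in dendritic cells and 1469 to 3886 CPM in members. Resident genes were higher in 14 of 17 (median 5.35), lipid-associated genes in 10 of 14 and iron and heme genes in 7 of 8. The dendritic rule required H2-Ab1 and capped the macrophage genes, and the part of this selection in these differences was not tested. Ccl24 had 0 UMIs in dendritic cells and was at least 112-fold higher in members, Cxcl13 at least 104-fold and Cd209f at least 66.4-fold. F13a1 (6.08 ± 0.20), Pf4 (8.80 ± 0.25), Stab1 (5.97) and the C5a receptor C5ar1 (5.77) were among the other genes named on this side. Lower in members were the chemokines Ccl22 (-6.78) and Ccl17 (-4.17), Cd7 (-6.93), Adam23 (-5.18), the lectin receptors Klrd1 (-4.81), Klrb1b (-4.07) and Klrk1 (-3.84), the gut-homing integrin Itgb7 (-3.68) and Plac8 (-4.18).

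Clustering of the members within each pair, on variable genes other than those of the rule, described the mixture further. The SAR131675 pair gave 6 clusters of 39 to 124 cells and the LNR pair 9 of 19 to 155. These clusters are described by number and leading genes, with no test, and their sizes are not compared between libraries. In both pairs a cluster with Ear2, Mucl1 and Ccl17 among its leading genes was rich in class II, with 89.3% of 84 cells in cluster 2 of the SAR131675 pair and 94.7% of 76 cells in cluster 4 of the LNR pair at 5000 CPM or more. Few of their cells held these genes, 25% and 34.2% for Ear2, 8.33% and 10.5% for Mucl1 and 4.76% and 3.95% for Ccl17. Of the other leading genes, H2-DMb1 was found in 78.6% and 82.9%. Klrb1b was found in 27.4% in the SAR131675 pair, and Tnip3 in 44.7% and Ccr2 in 84.2% in the LNR pair. Folr2 was at 22.7 CPM and 21.5 CPM. Ccl17 and Klrb1b were above named as lower in members than in dendritic cells, and a part of dendritic cells in these clusters was not tested. Ear2 was at 269 CPM and 267 CPM in these clusters, and Ccr2 at 943 CPM and 1097 CPM. A second kind recurred as cluster 1 of each pair, 124 and 155 cells led by Cd209g with Ccl8 and Cd209f in one and Ccl7 and Il10 in the other, with F13a1 at 3928 CPM and 2412 CPM, and class II high in 13.7% and 23.2%. Cluster 2 of the LNR pair (117 cells, 8.55% with other markers) had these levels too, with Ccl8 at 4858 CPM against 4695 CPM in cluster 1 of the SAR131675 pair and 1539 CPM in cluster 1 of the LNR pair, F13a1 at 2693 CPM, Folr2 at 1003 CPM and class II high in 16.2%. Its leading genes were hemoglobin genes, Cxcl13 and interferon-stimulated genes such as Ifit1, although Hbb-bs was found in 17.1% of its cells against 14.7% of the rest.

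Another kind, cluster 6 of the SAR131675 pair (39 cells) and cluster 7 of the LNR pair (44 cells), was led by Vsig4, S100b and Ctla2a. Vsig4 was at 974.8 CPM and 1470 CPM there, Trem2 at 716 CPM and 1296 CPM, the fractalkine receptor Cx3cr1 at 423 CPM and 986 CPM, Lyz2 at 13397 CPM and 19598 CPM, and class II was high in 2.56% and 2.27% of cells. Spp1 was highest in cluster 5 of the SAR131675 pair (54 cells, with Mmp12, Slc7a11 and Gpnmb) and cluster 8 of the LNR pair (30 cells, with Arg1, Slc7a11, Ptgs2 and the neutrophil genes S100a8 and S100a9). Its level was 1090 CPM and 3434 CPM in them. Other clusters were led by genes of other cells. Cluster 3 of the SAR131675 pair (Prg4 and keratins, 95% with other markers), clusters 3 (Krt2 and Cst6, 96.3%), 6 (Mmp13, Ibsp and hair keratins, 98.3%) and 9 (Acta2 and Rgs5, 89.5%) of the LNR pair fell in this kind. In cluster 6 of the LNR pair, Mmp13 and Ibsp were each found in 5.08% of cells and the hair keratin Krt31 in 1.69%. Col1a2 and Comp, also among its leading genes, were found in 91.5% and 61.0%. Cluster 4 of the SAR131675 pair was led by hemoglobin genes together with Cxcl13, with Hbb-bs in 32.7% of its 55 cells against 27.7% of the rest and class II high in 74.5%. Cluster 5 of the LNR pair was led by the mast cell genes Cma1 and Mcpt4 and the simple keratins Krt18 and Krt8, with Cma1 found in 4.23% and Krt18 in 2.82% of its 71 cells.

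**Figure D4:**
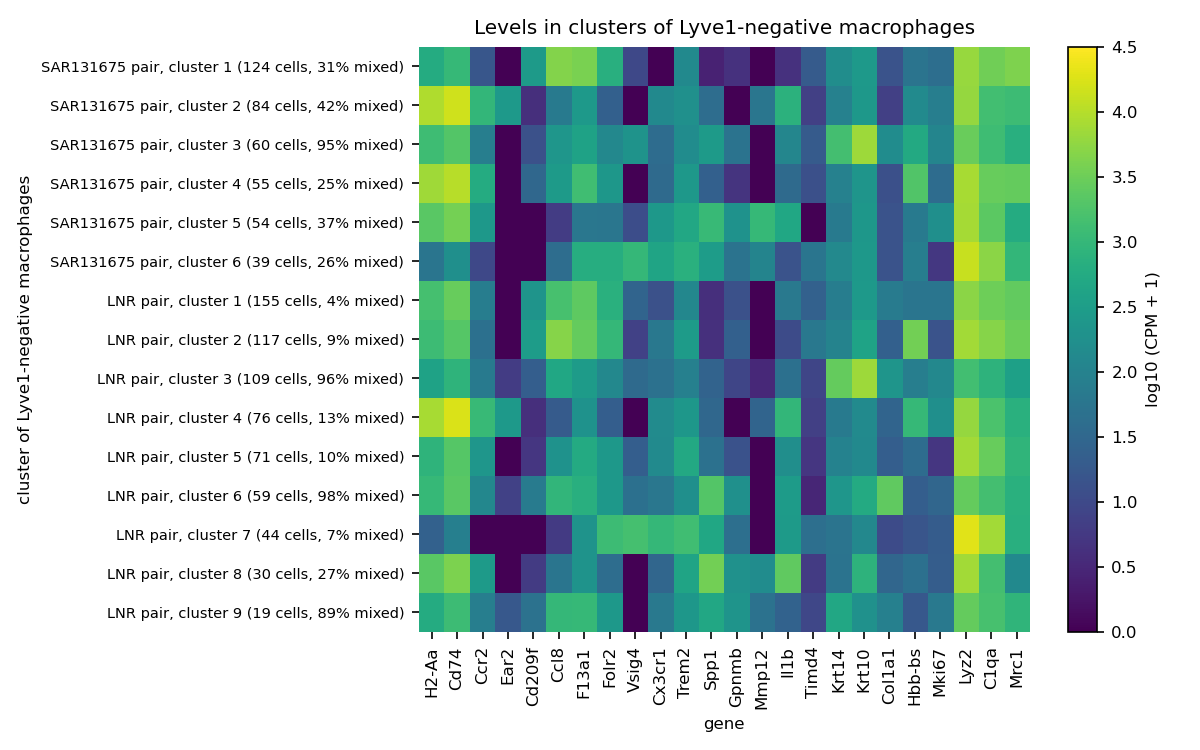
Levels of selected genes (columns) in each cluster of Lyve1-negative macrophages (rows, with cell numbers and the percent of cells with markers of another class), as log10 of CPM plus 1 by color. Class II and Ear2 coincide in cluster 2 of the SAR131675 pair and cluster 4 of the LNR pair, Vsig4 and Trem2 in clusters 6 and 7, and keratins or Col1a1 in the clusters with 95% to 98.3% of mixed cells.

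Between the libraries of a pair, members were compared gene by gene as log2 ratios of CPM, for genes with at least 100 UMIs, with no test. With SAR131675, 26 of 5056 genes (0.514%) were past 2-fold higher than with control chow and 35 (0.692%) past 2-fold lower. Without barcodes with other markers these counts were 9 and 11, over only those genes that still had 100 UMIs, whose number is not given here. Over all genes the interval lay above 0 for 469 (9.28%) and below 0 for 520 (10.3%). The resident list stood at a median of 0.37 beside 0.008 over all genes, and the interval lay above 0 for 12 of 15 genes and below 0 for none. Alternative activation genes stood at 0.42, with 4 of 8 above 0 and none below. Class II had a median of -0.25, with 7 of 8 intervals below 0, and inflammatory genes -0.26, with 5 of 10 below 0. Iron and heme genes stood at -0.27 with 3 of 6 below 0, lipid-associated genes had 7 of 13 below 0, chemokines 3 of 12 above and 5 below, and osteoclast genes a median of -0.22 with 1 of 4 (Acp5, -1.10) below 0 and past 2-fold lower and none above. The share of members with class II at 5000 CPM or more was 38.8% in SAR131675 and 39.8% in control chow. Markers of other classes did not move together. Fibroblast markers were higher with SAR131675 (median 0.75, 2 of 4 past 2-fold). Keratinocyte markers stood at 0.05 (2 of 5 intervals above 0 and 2 below), erythroid at -0.13, Langerhans at -0.14 and Schwann markers at -0.50. Summed keratinocyte markers were at 3091 CPM in SAR131675 members and 4587 CPM in control chow members. By barcodes, 49.2% of SAR131675 members carried other markers against 31.3% in control chow. The part of those markers in these ratios was not tested.

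Cd209g, a C-type lectin of resident macrophages, had the largest ratio above 0 by the naming rule with SAR131675, 65.4 CPM against 17.0 CPM and a log2 ratio of 1.94 (95% interval 1.23 to 2.73). It rested on 1 cell with 33.6% of its UMIs (1.22 without that cell), and the ratio was -0.18 without barcodes with other markers. Cd209f went the same way (1.02, and -0.19 without those barcodes). Ccl7, a monocyte chemoattractant, was steadier, at 164 CPM against 75.2 CPM from 274 and 84 UMIs, with a log2 ratio of 1.13 and 0.96 without its top cell. It was found in 22.8% of SAR131675 members and 20.5% of control chow members, shares that differed little. Cmah (1.18), Cd209a (1.04), Gcnt1 (0.99), Nabp1 (0.99), D17H6S56E-5 (0.94), Syngr1 (0.93) and the stress cytokine Gdf15 (0.93) completed the genes named as higher. Without their top cells these ratios ran from 0.40 (Gdf15) and 0.61 (D17H6S56E-5) to 1.62 (Cmah). Without barcodes with other markers Syngr1 was at 0.37. Among listed genes, Ccl8 was at 1330.0 CPM against 794 CPM, a log2 ratio of 0.74 (95% interval 0.63 to 0.86).

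On the lower side with SAR131675, the largest ratios rested on single cells of control chow. Mucl1 was at 7.80 CPM against 112 CPM (-3.84), but 1 cell held 79.0% of its UMIs and the ratio was -0.88 without that cell and -0.08 without upper limits on genes and UMIs. Mmp12 was at 29.4 CPM against 362 CPM (-3.62), -1.87 without its top cell and 3.13 when 5 of the 6 macrophage genes were required. Spp1 and Gpnmb, at -2.66 and -2.07, are genes of the lipid-associated list and were not named by size. Itgax, the integrin CD11c, was at 13.2 CPM against 69.8 CPM with 22 and 78 UMIs, a log2 ratio of -2.40 (95% interval -3.16 to -1.71) and -1.85 without its top cell, -1.43 with 5 of 6 genes required and -1.65 as a mean over cells. Il7r (-1.38, and 0.10 with 5 of 6 genes required), Oasl1 (-1.14), Csf2rb (-1.14), Mmp19 (-1.11), Rab11fip1 (-0.99), Bcl2l11 (-0.99) and Icam1 (-0.93) were the other named genes. Without their top cells these ratios ran from -0.59 (Bcl2l11) and -0.64 (Mmp19) to -1.18 (Rab11fip1). Bcl2l11 was also at -0.59 with 5 of 6 genes required. Icam1, an adhesion receptor for leukocytes, had the smallest top-cell part of the named genes on this side, 3.35% of its 236 and 302 UMIs. Bcl2l11 was found in more members, 36.4% in SAR131675 and 45.2% in control chow against 34.4% and 42.2% for Icam1.

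With LNR, 41 of 4880 genes (0.84%) were past 2-fold higher than in sham and 58 (1.19%) past 2-fold lower. Without barcodes with other markers these counts were 12 and 5, again over only those genes that still had enough UMIs. Over all genes the interval lay above 0 for 477 (9.77%) and below 0 for 360 (7.38%), and genes with more UMIs have narrower intervals. Chemokines had a median of 0.36 with 7 of 12 intervals above 0, lipid-associated genes 0.30 with 11 of 14 above 0, inflammatory genes 0.22 with 7 of 11 above 0 and macrophage genes outside the rule 0.23 with 11 of 16 above 0, beside 0.033 over all genes. Class II (median -0.05) and resident genes (-0.0037) stood near the median of all genes. Other lists stood as high, with monocyte genes at 0.43 (3 of 5 above 0), phagocytic genes at 0.40 (6 of 10), iron and heme genes at 0.40 (3 of 7), growth factors at 0.31 (4 of 7), hypoxia genes at 0.29 (3 of 7), interferon-stimulated genes at 0.49 (1 of 3) and osteoclast genes at 0.36 (2 of 4, with 1 past 2-fold). Markers of other classes went both ways. The medians were 0.79 for neutrophil (2 of 2 above 0), 0.59 for mast cell (2 of 2) and 0.45 for fibroblast markers (3 of 5), but -0.33 for keratinocyte (2 of 5 above 0 and 3 below), -0.45 for Langerhans (2 of 4 below, with 1 past 2-fold lower) and -0.46 for pericyte markers (2 of 2 below). Single cells weighed on some of these, since S100a9 was at a log2 ratio of -0.29 without its top cell and 1 cell held 59.6% of the Mcpt4 UMIs and 63.3% of the Cma1 UMIs. Erythroid genes were higher in LNR too, with 4 of 4 past 2-fold and Hba-a1 at 295 CPM against 26.7 CPM (62.3% of its UMIs in 1 cell, and a log2 ratio of 1.88 without that cell), and the part of these markers in the other ratios was not tested.

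Ccl12, a monocyte chemoattractant, had the largest ratio above 0 by the naming rule with LNR, 77.4 CPM against 26.7 CPM from 153 and 41 UMIs, a log2 ratio of 1.54 (95% interval 1.03 to 2.07) and 1.33 without its top cell. It was found in 11.7% of LNR members and 6.41% of sham members. Clec7a was at 101 CPM against 48.2 CPM, a log2 ratio of 1.07 (95% interval 0.68 to 1.48) and 0.97 without its top cell. Spp1 was at 727 CPM against 270.2 CPM (1.43), but 43.3% of its UMIs came from 1 cell and the ratio was 0.25 without it. The receptors Ccr1 (0.89), Fcgr1 (0.86), Clec4d (0.85), Clec4n (0.83) and Milr1 (0.75), the chemokine Ccl4 (0.86) and Arrb2 (0.84) followed. Fcgr1 binds IgG, and Clec4d and Clec4n are lectins that sense pathogens. Among listed genes, Ptgs2 (1.67), the osteoclast protease Ctsk (1.35), Gpnmb (1.23), the epidermal growth factor family ligand Hbegf (1.07) and Isg15 (1.12) were past 2-fold. Gpnmb was found in 8.15% of LNR members and 8.97% of sham members and Ctsk in 12.5% and 11.5%, shares that differed little beside the ratios. Their top cells held 16.6% of the UMIs of each, and without them the ratios were 0.87 and 1.00. Over the alternatives Gpnmb ranged from 0.09 to 1.41 and Ctsk from 0.52 to 1.98. Without their top cells Ptgs2, Hbegf and Isg15 were at 1.48, 0.83 and 0.98, and Ptgs2 was found in 8.70% and 3.85% of cells, Hbegf in 12.8% and 10.3% and Isg15 in 13.6% and 5.77%.

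Ratios below 0 with LNR were small under the naming rule. Gdpd3 (-0.74) was the lowest, followed by Cdc42se2 (-0.51), Tep1 (-0.46), the transcription factor Irf5 (-0.44), Klf2 (-0.43, from 612 and 640 UMIs), Ednrb (-0.36), Grb2 (-0.30), Tns1 (-0.27), Trf (-0.26) and Ap2a2 (-0.22). Gdpd3 rested on 47 and 61 UMIs, and the other 9 lay within 1.5-fold. Fabp5, a lipid-associated gene that keratinocytes also express, was lower in LNR (954 CPM against 1679.6 CPM, -0.82, and -0.23 without its top cell), against the direction of its list.

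The pairs were set side by side over the 671 genes that met the naming filter in both, which do not share a control library. With SAR131675, 19 genes were past 1.5-fold higher and 25 lower, and with LNR 27 were higher and 0 lower. Since 0 genes were past 1.5-fold lower with LNR, neither a shared fall nor a rise with SAR131675 and a fall with LNR could occur. The 19 and 27 higher genes had 0 in common. Lists this short among 671 genes would share few genes even if unrelated, so this is not read as a difference between the pairs. No overlap was tested, including that of genes with opposite directions. Lower with SAR131675 and higher with LNR were 6 genes, Clec4e (-0.89 and 0.69), Clec7a (-0.84 and 1.07), the endotoxin coreceptor Cd14 (-0.60 and 0.74), lysosomal acid lipase Lipa (-0.85 and 0.66), Mucl1 (-3.84 and 0.73, with the first set by 1 cell as above) and the pseudogene Ftl1-ps1 (-0.73 and 0.64), whose reads cannot be told apart from those of Ftl1 with certainty. Clec7a was at 93.0 CPM in SAR131675, 167 in control chow, 101 in LNR and 48.2 in sham and Cd14 at 232 CPM in SAR131675, 352 in control chow, 429 in LNR and 257 in sham. Control chow was the highest library for Clec7a and LNR the highest for Cd14, and with 1 library per condition it cannot be said whether the treatments or the libraries differ.

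**Figure D5:**
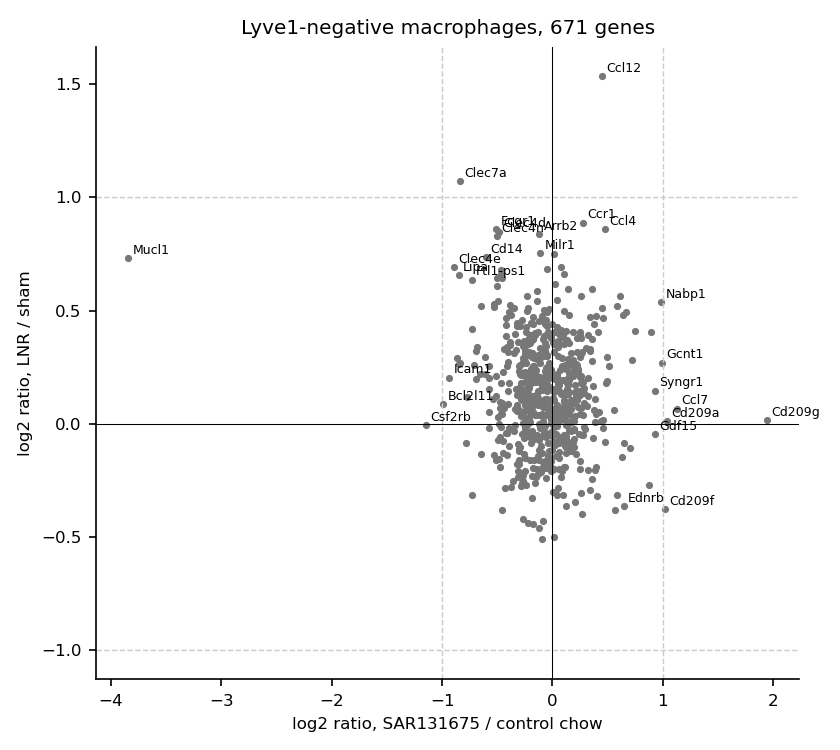
Log2 ratio of CPM in Lyve1-negative macrophages for SAR131675 over control chow (horizontal axis) and LNR over sham (vertical axis), 1 point for each of 671 genes, with dashed lines at 2-fold. Past 1.5-fold in both pairs, 6 genes lie to the upper left, among them Clec7a (-0.84 and 1.07) and Cd14 (-0.60 and 0.74).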

How the data were processed

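The authors deposited UMI counts per gene and barcode for 4 libraries over 33696 genes. By the file headers, the SAR131675 pair was made with Cell Ranger 8.0.1 and the other pair with 6.1.2, whereas the submitters' processing notes name 6.1.2 and GRCm39 only. No barcode had under 500 UMIs, and library totals ran from 168507188 to 585284877 UMIs. Barcodes with 200 to 5500 genes, at most 30000 UMIs and at most 10% mitochondrial UMIs were kept. Doublets were left in, and an alternative removed barcodes with UMIs of 3 or more of 5 markers of another class. Levels are CPM over summed UMIs. Classes were compared with edgeR 4.0.16 (R 4.3.3, TMM, filterByExpr, library block, adjusted p under 0.05), leaving out genes that chose a class. The 4 libraries differ in condition, so these p-values measure the spread of the class difference over libraries. Pairs were compared as log2 CPM ratios with exact conditional intervals in Python 3.11.15 (scipy 1.17.1). Members were clustered by the Leiden method (resolution 0.7, 2000 variable genes, 20 components, scanpy 1.11.5). Named between classes were the 15 largest folds each way among called genes with 1 sign in 4 libraries and 50 CPM in the higher class. Named within pairs were the 10 largest rises and falls with at least 100 UMIs, 2-fold over other cells and an interval without 0. Genes of the lists were also named, and the leading genes of clusters were named after their values were seen. 1 gene that met the naming rule is not reported here. The members and lists were chosen with earlier results of these data known. Both statistics were tested on simulated counts.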

Additional observations from a re-analysis of the deposited data

How the results depend on the processing

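The share of members among kept cells turned direction with SAR131675 without barcodes with other markers (log2 ratio -0.12 against 0.32). Over cells with a Ptprc UMI it was 0.06, with 3 or more of the 6 macrophage genes 0.23 and after thinning 0.16, with intervals that include 0. Its other alternatives, and all of those for LNR and for the share among macrophages, kept their direction.

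Between classes, the library is the block that pairs the sums. Without it, the fit gave 62 higher and 33 lower genes against Lyve1-positive macrophages, 243 and 224 against monocytes, and 318 and 274 against dendritic cells. No paired analysis was possible because each condition has 1 library for the comparisons between conditions. Against Lyve1-positive macrophages, all 4 classes in 1 fit gave 314 higher and 236 lower of 10645 tested, matched depth 362 and 314 of 10281, and thinning 333 and 201 of 6940. For lower genes DESeq2 1.42.0 gave 368 of 11798 and no filter 1111 of 21863. Leaving out 1 library gave 429 to 558 higher and 364 to 420 lower, with 392 lower without sham, 389 without SAR131675 and 364 without control chow. Against monocytes, no filter gave 1096 higher of 19748 tested and all 4 classes 1094 of 10642. Leaving out 1 library gave 350 (LNR) to 607 higher, 402 without sham, and 458 (LNR) to 564 lower. Against dendritic cells, no filter gave 1355 higher of 20156 tested, and leaving out 1 library 575 (control chow) to 806 higher and 575 (SAR131675) to 802 lower. Of 1162 alternatives for 90 named genes, 1155 kept direction and call, 7 lost the call and 0 turned.

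Between SAR131675 and control chow, the counts of 26 higher and 35 lower became 9 and 11 without barcodes with other markers, 44 and 14 with 5 of 6 macrophage genes, 90 and 99 at 50 UMIs and 10 and 14 at 200 UMIs, and the higher count became 46 without upper limits and 43 as a mean over cells. With LNR, 41 and 58 became 12 and 5 without barcodes with other markers, 95 and 103 at 50 UMIs and 25 and 29 at 200 UMIs. Except for the mean over cells, these settings also changed which genes had enough UMIs, and the numbers compared are not given here. Of 240 alternatives for 40 named genes, 214 stayed within their spread and 4 turned, Cd209g (-0.18) and Cd209f (-0.19) without barcodes with other markers, and Mmp12 (3.13) and Il7r (0.10) with 5 of 6 genes. Leaving out the cell with most UMIs of a gene was added after seeing the data. The causes were not tested.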
